A study of Mus musculus with 4 samples.

Results

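The genes examined here are the IGF-binding protein genes Igfbp2 to Igfbp7, the receptor gene Igf1r, and the IGF2 mRNA-binding protein genes Igf2bp1 to Igf2bp3. They were selected by gene symbol, with earlier results of these data known, and all 10 were found among the 24346 symbols listed in each library. The libraries were made from polyadenylated RNA of HFSCs, CD49f+CD34+ cells sorted from the dorsal skin of C3H/HeN mice of 4 weeks of age and grown without serum or feeder cells in the medium M-CnT. Of the 4 libraries, 2 came from HFSCs after 10 passages (10p-HFSCs) and 2 from HFSCs after 48 passages (48p-HFSCs), and the comparison asks how gene expression differed after long-term culture. No genotype or treatment set the groups apart other than the passage number. The sources used here do not say whether the libraries of a group came from separate cultures or animals, so the p-values measure only the spread between these libraries, which may be technical. All values are FPKM, a measure of fragments per exon length that is scaled to the mapped fragments of each library.

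Insulin-like growth factors are secreted peptides that act through the tyrosine kinase receptor IGF1R, which drives growth and survival of keratinocytes and many other cells. IGF-binding proteins hold these peptides outside the cell and thereby store them, carry them or keep them from the receptor, and proteases release them again. In skin, IGF1 comes mainly from dermal cells and acts on the follicle epithelium. The IGF2 mRNA-binding proteins share only part of the name: they are cytoplasmic RNA-binding proteins that stabilize, localize or control translation of transcripts such as Igf2, Actb and Myc, and Igf2bp1 and Igf2bp3 are mostly silent in adult tissue.

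The libraries differed in depth and in their summed FPKM. Relative depth, read from the ratio that recurs most often among genes of low FPKM and set against replicate 1 of 10p-HFSCs, was 71.6% in its replicate 2, and 82.9% and 46.7% in replicates 1 and 2 of 48p-HFSCs, so low values are least precise in the last library. The sum of FPKM ranged from 581516 to 719012 in 3 libraries and reached 1414950 in replicate 2 of 48p-HFSCs. Replicates lay at least 2-fold apart on the log2(FPKM + 1) scale in 1.37% of tested genes in 10p-HFSCs and in 17.0% in 48p-HFSCs. Of the keratinocyte markers, Krt5 was between 1473 and 8156 and Krt14 between 1217 and 3896 in all libraries, and Itga6, which encodes the CD49f used in the sort, was between 20.8 and 101. Cd34, which encodes the other marker of the sort, was near 0, at most 0.234. In contrast, the paper reports most cells of both groups as immunopositive for CD34 protein. It also reports, by quantitative RT-PCR, that the CD34 transcript was maintained through long-term culture. Of the other follicle stem cell markers, Krt15 was between 18.8 and 425 and Sox9 between 8.31 and 45.6, while Lhx2 was at most 0.0241. Of the 7 keratinocyte markers tested, Itga6 and Itgb4 were called higher in 48p-HFSCs and Sox9 lower.

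In 10p-HFSCs, the IGFBP genes were represented almost wholly by Igfbp3, and in 48p-HFSCs mostly by Igfbp7. Igfbp3 fell 18.3-fold in mean FPKM, while Igfbp7 rose 7.28-fold and Igfbp6 rose from near 0. Igf1r fell 2.30-fold. The calls of Igfbp3, Igfbp6, Igfbp7 and Igf1r each depended on the processing, that of Igf1r most. The smaller difference of Igf2bp2, the main IGF2BP gene in all 4 libraries, did not pass the test. Of the 10 genes, 7 passed the filter, which asked for 2 or more libraries with an FPKM of 1 or more. Among these 7, 2 were called higher in 48p-HFSCs, where 10.8% of all 11018 tested genes were, and 3 were called lower, where 9.15% were (limma, adjusted p-value under 0.05 and a log2 difference of at least 1). In either direction, 5 of the 7 were called beside 19.9% of all tested genes, and the groups did not overlap for 6 of the 7, beside 65.9%. Igfbp5 and Igfbp6 passed the filter only through the group in which they were higher, so these counts describe the genes and do not support anything about the families. The median log2 difference was -0.72 over the 7 genes and -0.03 over all tested genes, and the median of its size was 1.19 and 0.61.

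**Figure D1:**
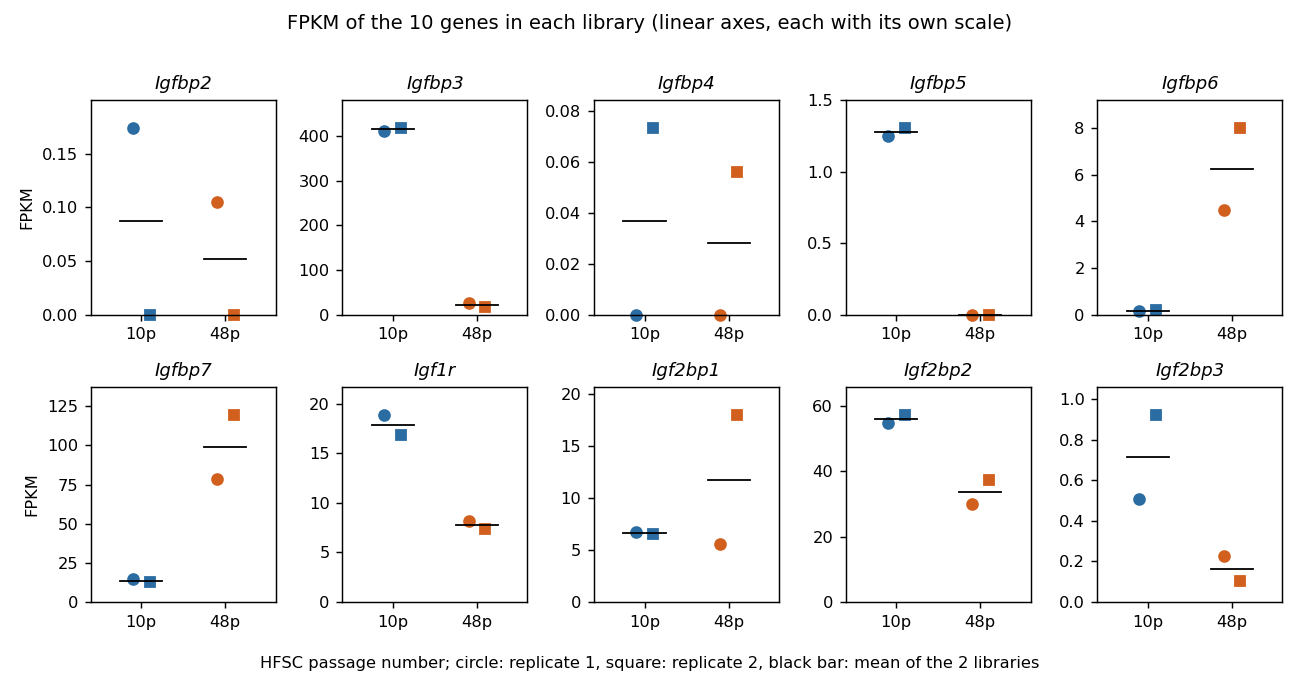
FPKM (vertical axes, linear, each gene on its own scale) of the 10 genes in 10p-HFSCs and 48p-HFSCs, with replicate 1 as a circle, replicate 2 as a square and the mean of the 2 libraries as a bar. The groups stand apart for Igfbp3, Igfbp5, Igfbp6, Igfbp7, Igf1r, Igf2bp2 and Igf2bp3, and overlap for Igfbp2, Igfbp4 and Igf2bp1.

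The 250 bases before the RefSeq start sites of Igfbp3 and Igfbp7 (GRCm38.p6, the assembly also named mm10) are shown first, since these are the 2 genes that exchanged places as the leading IGFBP gene. Both are printed 5′ to 3′ on the strand of the gene, the minus strand in both cases, at chr11:7213924-7214173 for Igfbp3 and chr5:77408046-77408295 for Igfbp7. Capitals mark matches on either strand to TATANA, the letters of a TATA box, or to GGGCGG, those of a GC box, and overlapping matches run together.
Igfbp3: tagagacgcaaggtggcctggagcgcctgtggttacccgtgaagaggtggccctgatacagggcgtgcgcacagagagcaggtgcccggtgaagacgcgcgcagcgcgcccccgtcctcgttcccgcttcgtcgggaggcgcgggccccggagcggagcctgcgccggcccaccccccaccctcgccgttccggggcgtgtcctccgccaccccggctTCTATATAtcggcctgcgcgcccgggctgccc
Igfbp7: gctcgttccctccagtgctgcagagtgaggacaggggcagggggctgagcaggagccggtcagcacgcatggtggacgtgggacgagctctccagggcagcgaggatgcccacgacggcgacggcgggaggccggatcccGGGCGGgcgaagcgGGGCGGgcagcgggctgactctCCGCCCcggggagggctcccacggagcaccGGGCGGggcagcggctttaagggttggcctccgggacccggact
The Igfbp3 window held 2 overlapping TATANA matches, whose first letters lie 32 and 30 bases before the start, and no GGGCGG. The Igfbp7 window held no TATANA and 4 GGGCGG matches, between 110 and 44 bases before the start. TATANA occurs in 22.6% and GGGCGG in 32.7% of the 32851 mouse promoter windows of this length. Both windows were rich in CG pairs, with 32 in Igfbp3 and 26 in Igfbp7 against a median of 6, and neither held CCAAT (33.9% of windows) or TGANTCA, an AP-1 site (6.75% of windows). These matches describe letters and not binding. A RefSeq window was found for 9 of the 10 genes.

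Igfbp3 encodes the main carrier of IGFs in blood, which is also made by keratinocytes. The gene lies on chr11:7206086-7213923 of mm10. Its FPKM was 411.4 and 417.8 in the 10p-HFSC libraries, and 26.8 and 18.5 in the 48p-HFSC libraries. Both libraries of 48p-HFSCs were thus far below both of 10p-HFSCs, and the 10p-HFSC replicates differed by only 1.02-fold. By level, Igfbp3 held rank 183 and 199 among all listed genes in 10p-HFSCs, and rank 2936 and 4221 in 48p-HFSCs. Mean FPKM of Igfbp3 went down from 415 ± 4.49 to 22.6 ± 5.92 (mean ± SD, n = 2 in both groups), which is -4.16 as a difference of log2(FPKM + 1), the scale of all log2 differences here (standard error, SE, of 0.30, limma adjusted p = 0.0011). Without replicate 1 or 2 of 10p-HFSCs, the log2 difference was -4.17 and -4.15, and limma gave adjusted p-values of 0.056 and 0.055, above the threshold. Igfbp1, which encodes a liver-derived binding protein and ends 3539 bp from the end of Igfbp3 on the opposite strand, was listed at 0 in all libraries.

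Igfbp7 encodes a secreted protein of the same family fold that binds IGFs weakly and is known from basement membranes and as a senescence-associated factor. The gene lies on chr5:77349240-77408041. Its FPKM was 14.5 and 12.6 after 10 passages and 78.6 and 119 after 48. Each 48p-HFSC library lay well above each 10p-HFSC library, although the 48p-HFSC replicates differed by 1.52-fold. The mean rose from 13.6 ± 1.34 to 99.0 ± 28.9 (mean ± SD, n = 2 in both groups), a log2 difference of 2.75 (SE of 0.30, limma adjusted p = 0.0030). The call was lost without replicate 1 or replicate 2 of 10p-HFSCs, with limma adjusted p-values of 0.090 and 0.098, and without the filter on low values, with 0.075.

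Igfbp6, on chr15:102144362-102149511, encodes a binding protein with a preference for IGF2. It was at an FPKM of 0.180 and 0.188 after 10 passages and at 4.504 and 7.99 after 48. As the 1 added before the logarithm exceeds both 10p-HFSC values, the log2 difference of 2.57 (SE of 0.32, limma adjusted p = 0.0044) understates the change, and with 0.1 added instead it was 4.43. The adjusted p-value rose to 0.11 without the filter on low values, and to 0.11 and 0.10 without replicate 1 or 2 of 10p-HFSCs (limma). Even after the rise, Igfbp6 stayed far under Igfbp7, at 4.09% and 5.48% of the summed FPKM of the 6 IGFBP genes.

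Igfbp5, on chr1:72857932-72874884, encodes the most conserved of the binding proteins, which also binds to matrix. It had an FPKM of 1.246 and 1.305 in 10p-HFSCs but in 48p-HFSCs it was listed at 0 in each library, for which reason no fold change is given. It was called lower by limma, with a log2 difference of -1.19 (SE of 0.21, adjusted p = 0.015), which depends on the 1 added to each FPKM and was -3.78 with 0.1 added instead. The call was lost without replicate 1 or 2 of 10p-HFSCs (limma adjusted p = 0.078 and 0.072) and when library values were adjusted for the length and GC content of transcripts (-0.90, adjusted p = 0.054). Igfbp2, which lies tail to tail with Igfbp5 at a distance of 5457 bp, did not pass the filter, with an FPKM of 0.174 and 0 after 10 passages and of 0.105 and 0 after 48. Igfbp4, a binding protein cleaved by the protease PAPP-A, had 0 and 0.0733 after 10 passages and 0 and 0.0562 after 48. Both genes were thus at or near 0 in all libraries, and at this depth no difference was detectable.

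As FPKM is a value per length, the IGFBP genes can be set side by side within a library. Their summed FPKM was 428 and 432 after 10 passages and 110 and 146 after 48. Igfbp3 made up 96.2% and 96.7% of this sum after 10 passages but 24.4% and 12.6% after 48. Igfbp7 made up 3.40% and 2.93% after 10 passages and 71.4% and 81.8% after 48. The order of the genes was thus Igfbp3, Igfbp7, Igfbp5 and Igfbp6 in both 10p-HFSC libraries, and Igfbp7, Igfbp3 and Igfbp6 in both 48p-HFSC libraries. At the lower end, Igfbp6 and Igfbp2 were about level in replicate 1 of 10p-HFSCs, at 0.180 and 0.174. In 10p-HFSCs, the genes named in this order lay further apart than the replicates did, and so they did in 48p-HFSCs. These shares do not depend on the scaling of a library. Beyond the division by length in FPKM, they were not corrected for effects of transcript length and GC content. The transcripts of Igfbp7 and Igfbp6, at 1200 and 1112 bp, are shorter than that of Igfbp3, at 2421 bp. Adjusted for transcript length and GC content, the log2 difference was 2.25 for Igfbp7, 2.11 for Igfbp6 and -4.285 for Igfbp3, each still called.

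**Figure D2:**
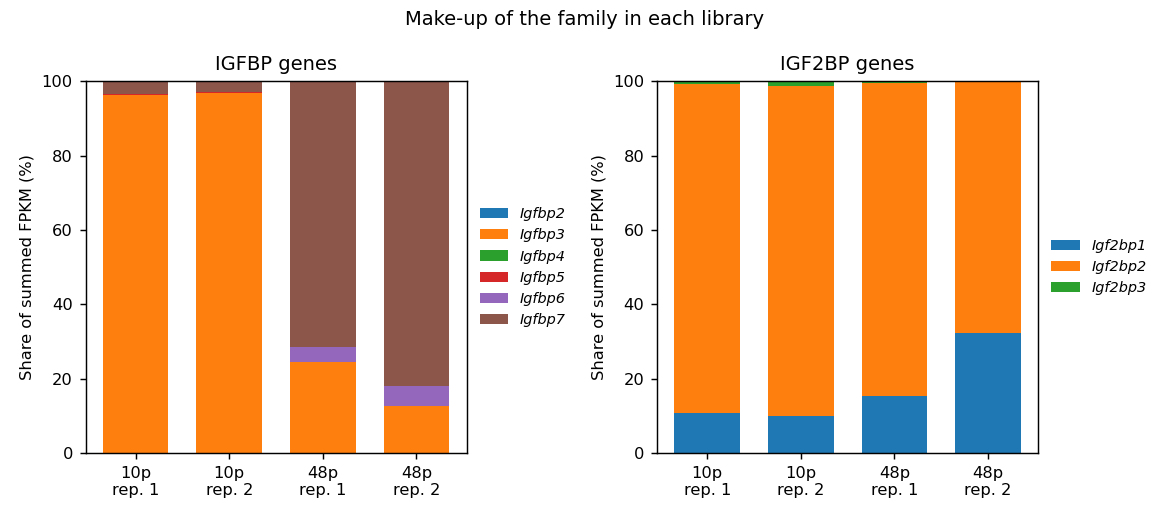
Share of the summed FPKM (%) of the 6 IGFBP genes (left) and the 3 IGF2BP genes (right) held by each gene in each library. Igfbp3 holds 96.2% and 96.7% in the 10p-HFSC libraries, Igfbp7 holds 71.4% and 81.8% in the 48p-HFSC libraries, and Igf2bp2 is the largest IGF2BP share in each library, from 67.4% to 88.5%.

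Some markers of other cell types also moved with the passage number. Of 10 markers of dermal fibroblasts, a cell type that makes several IGFBPs, 2 were tested. Both of these, Vim and Col1a2, were called lower, beside 9.15% of all tested genes. The summed FPKM of the list was 353 and 388 after 10 passages and 2.60 and 3.39 after 48. Dcn, Lum and Thy1 were listed at 0 in all 4 libraries, and 8 of the 10 markers stayed under an FPKM of 1 in every library. Of 5 leukocyte markers, 2 were tested and both, Cd74 and Lyz2, were called higher, beside 10.8% of all tested genes. Cd3e and Tyrobp were listed at 0 and Ptprc was at most 0.0711. Col1a2, Cd74 and Lyz2 passed the filter only through the group in which they were higher, so these calls describe the genes alone. The summed FPKM of the leukocyte list was 0.641 and 0.694 in 10p-HFSCs against 64.3 and 104 in 48p-HFSCs. In 48p-HFSCs this sum was almost wholly Cd74, at 61.2 and 102. The part of other cell types in the differences of Igfbp3 and Igfbp7 was not tested, and in bulk RNA fewer cells of a type and less RNA per cell cannot be told apart.

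Igf1r, which encodes the receptor of IGF1 and IGF2, lies on chr7:67952827-68233668. Its FPKM was 18.9 and 16.9 after 10 passages and 8.15 and 7.41 after 48. The groups did not overlap, and replicates differed by 1.12-fold and 1.10-fold. Mean FPKM of Igf1r went down from 17.9 ± 1.40 to 7.78 ± 0.526 (mean ± SD, n = 2 in both groups), a log2 difference of -1.10 (SE of 0.26, 95% interval from -1.73 to -0.475, limma adjusted p = 0.033). The transcript is the longest of the 10, at 11409 bp, and differences between replicates followed transcript length in both groups (Spearman's rho across genes of 0.494 in 10p-HFSCs and 0.367 in 48p-HFSCs). Adjusted for the length and GC content of transcripts, the log2 difference was -0.66 and no longer called (limma adjusted p = 0.096), and the call was also lost without replicate 1 of 10p-HFSCs (0.40), replicate 2 of 10p-HFSCs (0.30) or replicate 2 of 48p-HFSCs (0.061), without the filter on low values (0.072), and, at a log2 difference of -1.63, under rescaling to TPM (0.12).

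**Figure D3:**
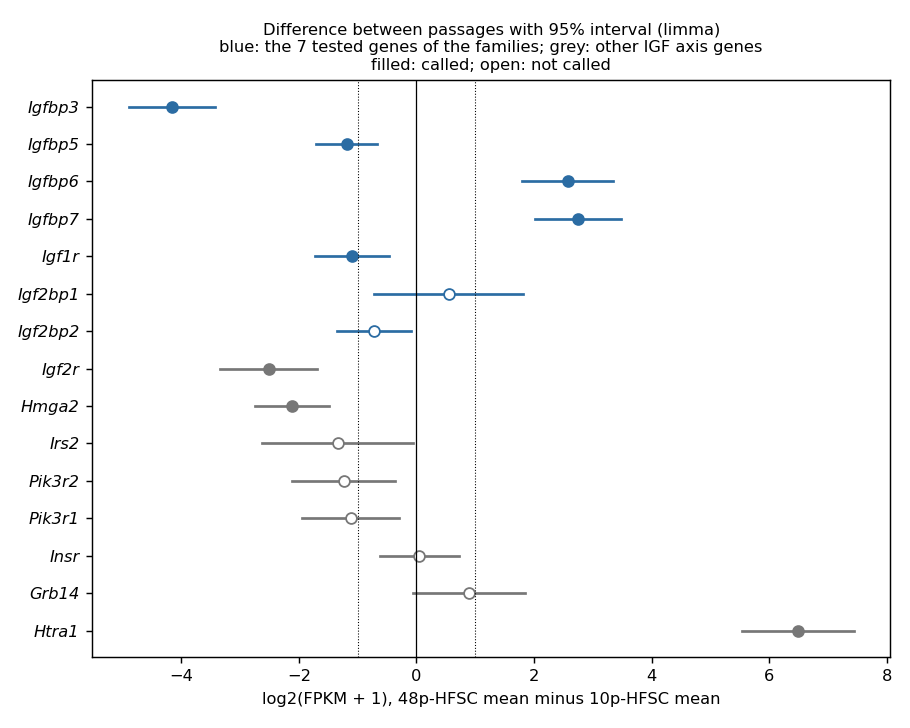
Difference of log2(FPKM + 1) between 48p-HFSCs and 10p-HFSCs (horizontal axis) with its 95% interval from limma, for the 7 tested genes of the families (blue) and 8 other genes of the IGF axis (grey), filled where called. Igfbp3 has the lowest value, -4.16, and Htra1 the highest, 6.49. The intervals of Igf2bp1, Insr and Grb14 include 0.

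All 9 members of the let-7 family found in the miRNA table share the seed, bases 2 to 8, and Igf2bp1 to Igf2bp3 and Hmga2 are known let-7 targets, so their seed matches are shown as a feature of these transcripts. mRNA libraries do not measure let-7. The mature mmu-let-7a-5p (RefSeq, seed in capitals) is given first, followed by one 23-base stretch of each annotated 3′ UTR (GENCODE M21, GRCm38) with the match to the seed, CTACCTC, in capitals.
mmu-let-7a-5p: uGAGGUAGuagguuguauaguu
Igf2bp1: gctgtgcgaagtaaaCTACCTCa
Igf2bp2: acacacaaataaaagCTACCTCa
Igf2bp3: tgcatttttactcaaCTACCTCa
Hmga2: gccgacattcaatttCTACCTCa
The stretches lie at chr11:95961778-95961800, chr16:22059473-22059495, chr6:49086787-49086809 and chr10:120364224-120364246, all on the minus strand. The 3′ UTR of Igf2bp1 held 4 matches on the strand of the transcript, that of Igf1r 2, those of Igf2bp2, Igf2bp3 and Igfbp5 1 each, and those of Igfbp2, Igfbp3, Igfbp4, Igfbp6 and Igfbp7 none. The share of genes with a match differs with UTR length: among genes with a 3′ UTR of similar length, 34.4% held at least 1 match for Igf2bp1, 39.0% for Igf1r, 24.4% for Igfbp5, 12.1% for Igf2bp2 and 13.3% for Igf2bp3.

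Igf2bp2, on chr16:22059009-22163299, encodes the IGF2BP that remains in many adult tissues. Its FPKM was 54.8 and 57.2 after 10 passages and 30.1 and 37.3 after 48. Both 48p-HFSC libraries were lower than both 10p-HFSC libraries, which was also so for 34.3% of all tested genes. The log2 difference of -0.72 (SE of 0.25, 95% interval from -1.35 to -0.10) did not pass the test (limma adjusted p = 0.097), and it was called under none of the 14 other settings, in which it ranged from -1.30 to -0.48. Under quantile normalization its limma adjusted p-value was 0.025, but its log2 difference of -0.87 was below the size required for a call. Igf2bp3, on chr6:49085223-49214957, did not pass the filter, with an FPKM of 0.507 and 0.923 after 10 passages and 0.228 and 0.101 after 48.

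Igf2bp1, on chr11:95957163-96005940, encodes the IGF2BP also known as zipcode-binding protein. Its FPKM was 6.72 and 6.53 after 10 passages and 5.56 and 18.0 after 48. The 48p-HFSC replicates differed by 3.23-fold and lay on both sides of the 10p-HFSC libraries. The log2 difference of 0.55 (SE of 0.52, 95% interval from -0.72 to 1.82, limma adjusted p = 0.47) therefore shows no direction. It was 1.31 and called without replicate 1 of 48p-HFSCs (limma adjusted p = 0.026), and -0.22 without replicate 2. Under rescaling to TPM, which lowers all values of replicate 2 of 48p-HFSCs against the other libraries, it was 0.0088. Actb, whose transcript is the best-known target of this protein, was also highest in replicate 2 of 48p-HFSCs, at 3516 against 1069, 1380 and 1098 in the other libraries. That library also had the highest summed FPKM. The log2 difference of Actb was 0.69 (95% interval from -1.31 to 2.70, limma adjusted p = 0.57), and a link with Igf2bp1 was not tested. Igf2bp1 made up 10.8% and 10.1% of the summed IGF2BP FPKM after 10 passages but 15.5% and 32.5% after 48.

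**Figure D4:**
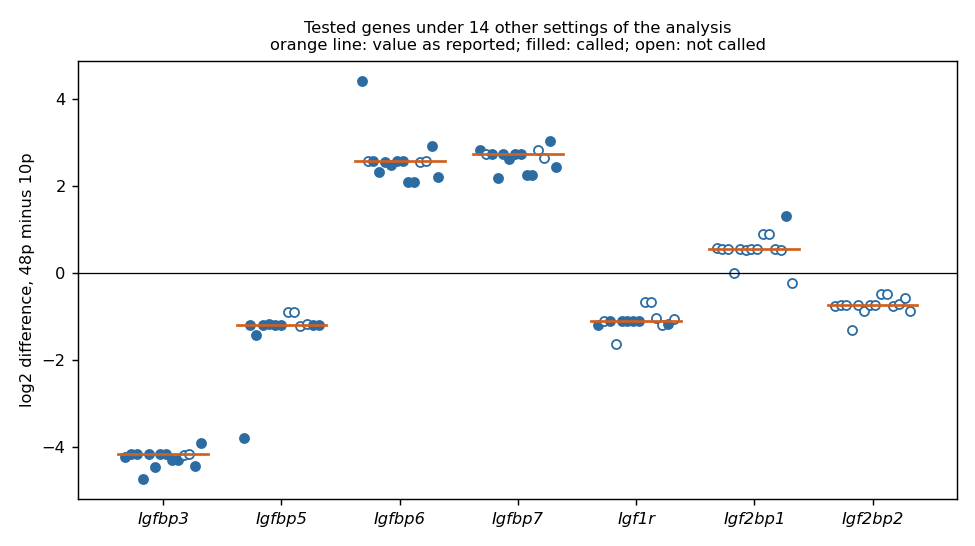
Log2 difference between 48p-HFSCs and 10p-HFSCs (vertical axis) of the 7 tested genes as reported (orange line) and under 14 other settings of scaling, filtering, variance model and left-out library (points, filled where called, with 13 for Igfbp5). Igfbp3 is called under 12 of them, Igfbp6 and Igfbp7 under 11, and Igf1r under 7, and Igf2bp1 takes values on both sides of 0.

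Of 46 other genes of the IGF axis, 29 passed the filter, of which 2 were called higher, Htra1 among them, and 2 lower, Igf2r and Hmga2 (limma, beside 10.8% and 9.15% of all tested genes). The median log2 difference of the 29 genes was 0.05. The ligands were at or near 0: Igf1, Ins1 and Ins2 were listed at 0 in all libraries. Igf2 did not pass the filter, with FPKM values of 0.0980 and 0.333 after 10 passages and of 0.828 and 1.11 after 48. Its mean was 4.50-fold higher in 48p-HFSCs, from values near 0. The paper lists Igf2 among the receptor activator genes that it found increased in 48p-HFSCs. Among the other receptors, Igf2r, which clears IGF2 and carries lysosomal enzymes, had 17.1 and 9.85 after 10 passages but only 1.49 and 1.42 after 48. All values of Igf2r in 48p-HFSCs were lower, with a log2 difference of -2.52 (SE of 0.34, limma adjusted p = 0.0059). Without replicate 1 or 2 of 10p-HFSCs it was -2.15 and -2.88, with adjusted p-values of 0.094 and 0.066, and without the filter on low values the adjusted p-value was 0.11. Insr, the insulin receptor gene, ranged from 1.57 to 2.29 over all libraries with overlapping groups, and had a log2 difference of 0.05 (95% interval from -0.61 to 0.72). Insrr was listed at 0 in all libraries.

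The largest difference of the list was that of Htra1, a secreted serine protease that cleaves IGFBP5 and matrix proteins. Htra1 was at an FPKM of 1.01 and 1.12 in 10p-HFSCs against 128 and 264 in 48p-HFSCs, a 184-fold higher mean. Its log2 difference was 6.49 (SE of 0.39, limma adjusted p = 0.00092), and without the filter on low values the adjusted p-value was 0.055. Of the other protease genes and protease inhibitors, Pappa, Pappa2, Stc1 and Stc2 were at most 0.373 in any library. Igfals, Igfbp1 and Igfbpl1 were listed at 0 in all libraries except for Igfals in replicate 1 of 48p-HFSCs, at 0.309.

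Downstream of the receptors, 21 of 23 genes were tested. Irs1, an adaptor of the receptor, was listed at 0 in all libraries. Irs2, the other adaptor, had an FPKM of 8.01 and 3.48 after 10 passages and of 2.82 and 0.660 after 48, a log2 difference of -1.34 that did not pass the test (limma adjusted p = 0.12). The regulatory PI3K subunits Pik3r1 and Pik3r2 differed by -1.12 (limma adjusted p = 0.067) and -1.24 (0.060), and the adaptor Grb14 by 0.89 (0.15). Without replicate 1 of 48p-HFSCs the log2 differences were -1.44 for Pik3r1, -1.69 for Pik3r2 and 1.39 for Grb14. Without replicate 2 of 48p-HFSCs they were smaller, at -0.80, -0.78 and 0.40, so their size rested much on that library. The related adaptor Grb10 did not pass the filter, with an FPKM of 0.0214 and 0.0150 after 10 passages and of 0.789 and 0.230 after 48. Of the 21 tested genes, 7 were lower in both 48p-HFSC libraries without overlap, beside 34.3% of all tested genes. Among these were the mTORC1 activator Rheb and the adaptor Shc1, with log2 differences of -0.83 (95% interval from -1.48 to -0.19) and -0.62 (95% interval from -1.20 to -0.040) that did not pass the test (limma adjusted p = 0.074 and 0.12). The kinase gene Mtor differed by 0.19 (95% interval from -0.52 to 0.89).

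Among 8 transcripts bound by IGF2BPs or expressed with them in the embryo, 5 were tested and 1 was called, beside 19.9% of all tested genes. Hmga2, an architectural chromatin protein gene, fell from 60.4 and 59.2 in 10p-HFSCs to 14.8 and 11.5 in 48p-HFSCs, a log2 difference of -2.11 (SE of 0.25, limma adjusted p = 0.0042). The call was lost without replicate 1 or 2 of 10p-HFSCs (limma adjusted p = 0.13 and 0.12) and without the filter on low values (0.056). Lin28a and Lin28b, which block let-7 processing, were at most 0.0639 in any library. H19, a noncoding RNA bound by IGF2BPs, ranged from 0.201 to 1.61 with overlapping groups, and Myc differed by 0.16 (95% interval from -0.50 to 0.82). Cd44 was higher in both 48p-HFSC libraries without passing the test (0.52, limma adjusted p = 0.23).

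The genes whose values over the 4 libraries came closest to those of Igfbp7, by Euclidean distance on the log2(FPKM + 1) scale, were Tspan5 (0.33), Sar1b (0.45), Wnt4 (0.54), Pmaip1 (0.55) and Basp1 (0.58). For Igfbp3 they were Tfrc (1.81), Slc25a4 (1.86), Spp1 (1.87), Atp6v1b2 (2.29) and Tfdp1 (2.41), at larger distances. With 4 libraries in 2 groups, such likeness reflects the level and the difference between groups and little else.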

How the data were processed

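RNA of 10p- and 48p-HFSCs (2 libraries each, single-end reads of a stranded kit) was mapped by the authors to mm10 with TopHat 2.1.1, Bowtie2 and SAMtools, and they deposited one FPKM value per gene symbol and library from Cufflinks/Cuffdiff 2.2.1. The versions of Bowtie2 and SAMtools differ between the paper and the submitters' processing notes, and annotation, strand setting and handling of multi-mapped reads are not given in the sources used here. FPKM values carry no read totals, so no counting interval is given, and tests for counts were not run.

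Libraries were grouped by the passage number in the labels. Genes reaching an FPKM of 1 in 2 or more libraries were compared on the log2(FPKM + 1) scale with limma 3.58.1 in R 4.3.3 (variance trend), with Benjamini-Hochberg adjustment over 11018 genes. Calls required an adjusted p-value under 0.05 and a log2 difference of at least 1. For single genes, the smallest two-sided p-value of an exact permutation test in this design is 0.333. The fit was tested on simulated data with the same spread in both groups, so that test does not cover the unequal spread of these libraries. Named are the 10 genes, the ligands and receptors of the IGF axis list, its genes that were called or differed 2-fold in mean, marker genes beside results they moved with, and the 5 nearest genes in pattern. Other list genes (such as Actb, Cd44, Mtor, Myc, Rheb and Shc1) were named after their values were seen, and some list genes are not reported here. Members and lists were chosen with earlier results of these data known. Positions are from GENCODE M21 (GRCm38), promoters and miRNAs from RefSeq.

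Alternatives were a pseudocount of 0.1, no filter, a mean FPKM of at least 1, TPM, median-of-ratios and quantile scaling, an adjusted p-value under 0.1, a variance prior without trend, calls without a fold limit, a replicate block, and each library left out. The correction for transcript length and GC content (natural splines with 4 degrees of freedom each), alone and with the block, was added after the data were seen.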

Additional observations from a re-analysis of the deposited data

How the results depend on the processing

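Leaving out a 10p-HFSC library leaves the spread to be estimated from the 48p-HFSC replicates alone. Over the libraries left out one at a time, the genes of the families called higher numbered 0 to 3 and those called lower 0 to 3, the IGF axis genes called higher 1 to 3 and lower 0 to 5, and all genes called higher 35 to 1936 and lower 140 to 1875. Without the filter on low values, 0 genes of the families were called higher by limma, 1 IGF axis gene was called higher and 0 lower, and of all genes 116 were called higher and 114 lower, against 1189 and 1008 as reported. Rescaling to TPM called 620 genes higher, and it moved the median log2 difference of all tested genes from -0.03 to -0.55, against which Igf1r stood at -1.63 and Igf2bp2 at -1.30 there. With values adjusted for the length and GC content of transcripts, 1 gene of the families was called lower, both alone and with the replicate block. IGF axis genes called lower numbered 5 under quantile normalization, 5 with the replicate block, 4 at an adjusted p-value under 0.1 and 4 with the length and GC correction together with the block. The log2 difference of Igf2bp1 turned to -0.22 without replicate 2 of 48p-HFSCs, within a range up to 1.31 over the left-out libraries, and that of Insr to -0.30 under TPM, -0.10 without replicate 2 of 10p-HFSCs and -0.097 without replicate 1 of 48p-HFSCs, within a range up to 0.21. The cause of these changes was not tested beyond what each setting removes. Same-numbered libraries deviated together from their group means (correlation of 0.408 across genes), but with 2 pairs and no label of a shared batch the samples share only a number. The replicate block called the same 5 genes of the families, with limma adjusted p-values of 5.8e-07 for Igfbp3, 0.0082 for Igfbp5, 3.8e-05 for Igfbp6, 1.0e-05 for Igfbp7 and 0.0065 for Igf1r, and 0.051 for Igf2bp2. Irs2, Pik3r1 and Pik3r2 were called lower with the block, and all genes called numbered 1613 higher and 1497 lower.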
